A study of Mus musculus with 3 samples.

Results

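The endoplasmic reticulum (ER) folding and collagen secretion machinery was described here as a set of 40 genes, found by symbol in the gene lists of all 3 libraries and joined by Ensembl gene ID. These were 40 of the 21446 genes that the libraries share. The set comprised 13 chaperones and disulfide isomerases, 9 genes of collagen folding and hydroxylation, 7 subunits of the translocon, 7 genes of vesicle transport and retrieval, and 4 genes of transcriptional control and the ER stress response. Single cells had been prepared from mandibular molars of mice that carry a Pthrp-mCherry knock-in reporter, in which the red fluorescent protein mCherry is made under control of the gene for parathyroid hormone-related protein (PTHrP). mCherry+ cells were taken by fluorescence-activated cell sorting and their RNA was counted by 3′ single-cell RNA sequencing with unique molecular identifiers (UMIs). There was 1 library from mice at postnatal day (P) 15, 1 at P25 and 1 at 8 weeks. All libraries carried the reporter, so none was a control without it, and the sort selected root-surface cells and their precursors only as far as the reporter marks them. The cells of a library had been pooled from mandibles. The study as a whole used mice of both sexes, mostly on a C57BL/6 background. How many mice gave each library, and of which sex, was not given in the sources used here.

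Secreted and membrane proteins enter the ER through the SEC61 translocon and fold there with the help of HSP70- and HSP90-type chaperones, the calreticulin and calnexin cycle and the protein disulfide isomerases. Type I collagen, the main protein of cementum, bone and periodontal ligament, also needs prolyl hydroxylases, prolyl isomerases and the chaperone HSP47 to form its triple helix, and leaves the ER in carriers coated by COPII. When unfolded protein accumulates, the unfolded protein response raises the transcription of many of these genes through ATF6, XBP1 and related membrane-bound factors. Cementoblasts, the cells that lay down cementum on the tooth root, are collagen-secreting cells.

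The libraries held 12926, 8971 and 5192 cells at P15, P25 and 8 weeks, with a median of 14253.5, 15834 and 8712.5 UMIs per cell. They shared few cell barcodes: 26 between P15 and P25, 16 between P15 and 8 weeks, and 13 between P25 and 8 weeks. The P25 matrix listed 32293 genes against 22056 in the others, and the joined genes held 95.2% of its UMIs against 99.7% and 99.8%, so levels at P25 rest on a different gene reference. Cells were grouped by the UMIs of 7 gate genes that are not among the 40. These were Ifitm5, a membrane protein of mineralizing cells, Ibsp, a mineral-binding sialoprotein, Hand2, a transcription factor of jaw mesenchyme, Rgs5, a marker of mural cells, Pappa2, a protease of insulin-like growth factor binding proteins, Cpz, a carboxypeptidase that binds Wnt proteins, and Ptprc, the leukocyte antigen CD45. In the order P15, P25 and 8 weeks, the Ifitm5 gate held 639, 820 and 267 cells, the Ibsp gate 1023, 738 and 515, the Hand2 gate 200, 269 and 195, and the Cpz gate 1155, 1282 and 414. The Rgs5 gate held 234, 25 and 37 cells. The Pappa2 gate held 175, 13 and 8 and the Ptprc gate 788, 197 and 19, and sums under 20 cells entered no test. In the Ptprc gate, 5 of 5 immune markers were above 0 in each library, at a summed 6896, 5764 and 7352 counts per 1000000 UMIs (CPM). The Ifitm5 gate held 14.0, 6.80 and 1.10 CPM of them. These markers do not measure the reporter, and its level in the Ptprc gate is not given here. The Ifitm5 gate held 8128, 16767 and 29896 CPM of the mineralization markers Dmp1, Bglap and Phex together with Ifitm5 itself, and the Hand2 gate 41.8, 33.8 and 154 CPM. Cells kept in a gate numbered 9013 of 27089, and 15450 were in no gate.

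The median share of the machinery in the transcriptome was lower in Ptprc cells than in the 6 other gates. In the Ifitm5 gate the median cell gave 1.33%, 1.61% and 1.33% of its UMIs to the 40 genes, in the order P15, P25 and 8 weeks, an order kept for all lists of 3 values that follow. The corresponding medians were 1.25%, 1.34% and 1.10% in the Ibsp gate, 1.20%, 1.43% and 1.23% in the Hand2 gate and 1.63%, 1.59% and 1.41% in the Cpz gate. The Cpz gate was above the Ibsp and Hand2 gates in each library. The Rgs5 gate had medians of 0.930%, 1.29% and 1.28% and the Pappa2 gate 1.34%, 1.38% and 1.01%. Cells of the Ptprc gate gave 0.469%, 0.842% and 0.634%, the lowest median of the 7 gates in each library. Cells in no gate gave 1.00%, 1.20% and 1.02%. Cells that passed both the Ibsp and the Hand2 minimum, which were kept out of either gate, had medians of 1.16%, 1.24% and 1.08%. Each gate has 1 sum per library, so these shares carry counting error and cell spread but no replicate error.

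**Figure D1:**
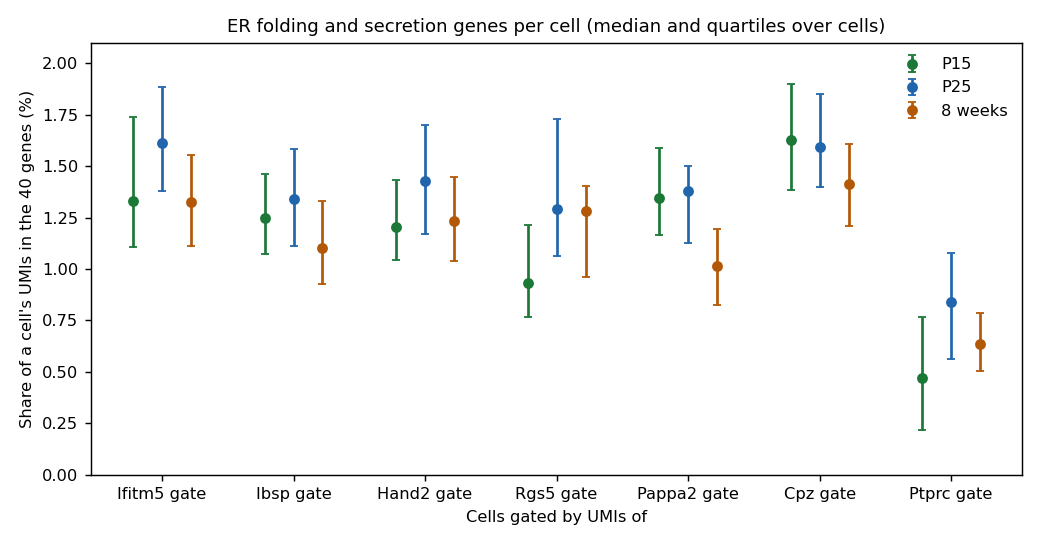
Share of each cell's UMIs taken by the 40 genes (y axis, percent) by gate and library, with points at the medians and bars over the interquartile range of cells. Medians in the 6 gates other than Ptprc lie between 0.930% and 1.63%, and those of the Ptprc gate between 0.469% and 0.842%.

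Split by role, the Ptprc gate lay further below the other gates in collagen folding than in chaperones. The 13 chaperones and isomerases took 0.486%, 0.453% and 0.435% of all UMIs in the Ifitm5 gate, 0.487%, 0.542% and 0.437% in the Hand2 gate, 0.504%, 0.519% and 0.476% in the Cpz gate and 0.327%, 0.513% and 0.401% in the Ptprc gate. The 9 collagen folding genes took 0.437%, 0.587% and 0.474% in the Ifitm5 gate, 0.336%, 0.457% and 0.420% in the Hand2 gate and 0.552%, 0.568% and 0.492% in the Cpz gate, but 0.0741%, 0.0773% and 0.0624% in the Ptprc gate. For chaperones the Ptprc value was the lowest of these 4 gates at P15 and 8 weeks and lay among them at P25, and for collagen folding genes it was the lowest in each library without overlap.

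**Figure D2:**
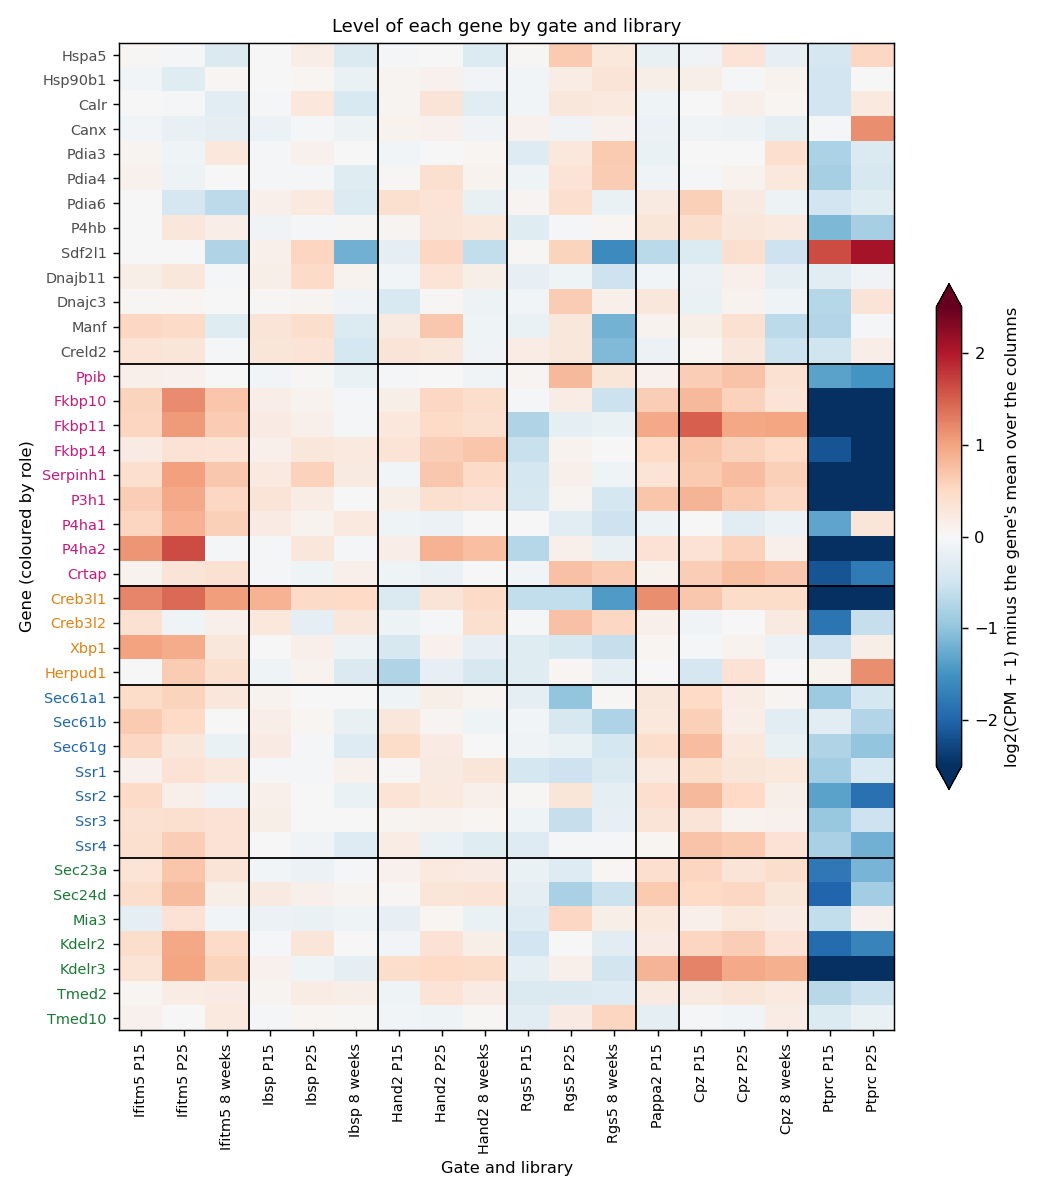
Level of each of the 40 genes in each gate and library as log2(CPM + 1) minus that gene's mean over the columns, with genes ordered by role. Collagen folding genes such as Fkbp11 (15.7 and 11.0 CPM at P15 and P25) and P3h1 (13.5 and 10.4 CPM) are low in both Ptprc columns, whereas Hspa5 is low at P15 and not at P25 (577 and 1095 CPM).

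The comparison of the 6 other gates, called mesenchymal here, with the Ptprc gate asked which of the genes set connective tissue cells apart from leukocytes of the same sort. Of the 40 genes, all of which passed the filter on low counts, 27 were higher in the mesenchymal gates and 3 lower at an edgeR adjusted p under 0.05, where 26.3% of the 13972 genes tested were higher and 32.1% lower. The median log2 fold change was 0.66 over the 40 genes and -0.03 over all genes. The Ptprc gate had sums at P15 and P25 only, which are assumed to vary like the sums of the other gates. Higher genes numbered 8 of 9 in collagen folding, 7 of 7 in the translocon, 5 of 7 in vesicle transport, 2 of 4 in transcriptional control and 5 of 13 among the chaperones.

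Serpinh1, which encodes the collagen chaperone HSP47, read 2178, 3311 and 2613 CPM in the Ifitm5 gate and 1544, 2584 and 2258 CPM in the Hand2 gate, against 191 and 189 CPM in the Ptprc sums of P15 and P25. The mesenchymal values exceeded the leukocyte values in each library, with a log2 fold change of 3.36 ± 0.22, SE (edgeR adjusted p = 3.56e-08). Standard errors follow ± throughout. Fkbp11, a prolyl isomerase of secretory cells, had the largest difference of the 40, a log2 fold change of 3.85 ± 0.31 (edgeR adjusted p = 2.47e-07). Kdelr3, a receptor that returns escaped ER proteins, followed with a log2 fold change of 3.54 ± 0.28 (edgeR adjusted p = 2.13e-07), then Creb3l1, the membrane-bound transcription factor OASIS that drives type I collagen genes in bone, with a log2 fold change of 3.49 ± 0.28 (edgeR adjusted p = 2.58e-07), and Fkbp10, a prolyl isomerase mutated in brittle bone disease, with a log2 fold change of 3.25 ± 0.23 (edgeR adjusted p = 7.71e-08). P3h1 and Crtap, which form the complex that hydroxylates a single proline of type I collagen, had log2 fold changes of 3.05 and 2.07 and were both called. P4ha2, a catalytic subunit of prolyl 4-hydroxylase, was called at 3.05, whereas its paralog P4ha1 had a log2 fold change of 0.40 ± 0.24 (edgeR adjusted p = 0.169) and was not called.

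Of the 13 chaperones, 8 were not called higher. Hspa5, which encodes the HSP70-type chaperone BiP, read 785, 746 and 598 CPM in the Ifitm5 gate and 577 and 1095 CPM in the Ptprc sums, which was lower at P15 and higher at P25. Its log2 fold change of -0.08 ± 0.13 (edgeR adjusted p = 0.618) was not called, nor were those of Hsp90b1, the ER HSP90 (0.16), Calr, the lectin chaperone calreticulin (0.09), and Xbp1, a transcription factor of the unfolded protein response (0.19). P4hb, the disulfide isomerase that also serves as the beta subunit of prolyl 4-hydroxylase, was called higher at 1.00. The 3 lower genes were Sdf2l1, a partner of BiP, with a log2 fold change of -1.96 ± 0.18 (edgeR adjusted p = 6.62e-07), Canx, the chaperone calnexin, at -0.76, and Herpud1, a component of ER-associated degradation, at -0.74. Sdf2l1 read 96.4 and 132 CPM in the Ptprc sums against 30.5, 30.7 and 17.6 CPM in the Ifitm5 gate. Canx read 214 and 487 CPM in the Ptprc sums of P15 and P25. In the same libraries it read 206 and 200 CPM in the Cpz gate and 231 and 234 CPM in the Hand2 gate. Its Ptprc value thus lay between those gates at P15 and above both at P25. The Ptprc sums also held 299 and 371 CPM of 6 B and plasma cell markers, against 117, 68.9 and 78.8 CPM in the Ifitm5 gate, with Jchain at 0 at P15, and 1204 and 1531 CPM of Col1a1. The part of those cells and of free RNA in these values was not tested.

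The Ifitm5 gate was set against the Ibsp and Hand2 gates to ask whether cells with this gene of mineralizing cells carry more of the machinery. Against the Hand2 gate, 15 of the 40 genes were higher and none lower, where 9.44% of genes tested were higher and 8.85% lower. Against the Ibsp gate, 12 were higher and none lower, with 3.12% and 2.23% of genes tested. The Ifitm5 minimum was reached by 668, 852 and 275 cells, of which 459, 655 and 234 also reached the Ibsp minimum. The Ibsp gate holds none of these, so this comparison mostly sets cells with both genes against Ibsp cells short of the Ifitm5 minimum. For the 0 lower genes of each comparison the edgeR counts at an unadjusted p under 0.05 were 1 against Hand2 and 0 against Ibsp, and DESeq2 called 1 (Pdia6) and 0. Median log2 fold changes of the 40 were 0.40 and 0.41, against 0.0037 and -0.01 for all genes. The genes called were mostly not chaperones. Against Hand2 they were 5 of 9 collagen folding genes, 4 of 7 translocon subunits, 3 of 4 transcription and stress genes, 2 of 7 transport genes and 1 of 13 chaperones, and against Ibsp 3, 4, 2, 3 and 0 of the same roles. The chaperone counts were near the shares of all genes. Both comparisons share the Ifitm5 sums, so their calls are not independent. The Ifitm5 gate also kept cells that reached the Cpz minimum, which the Ibsp and Hand2 gates left out. Without those cells 1 gene was called higher against Ibsp and 5 against Hand2, with median log2 fold changes of 0.22 and 0.20.

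**Figure D3:**
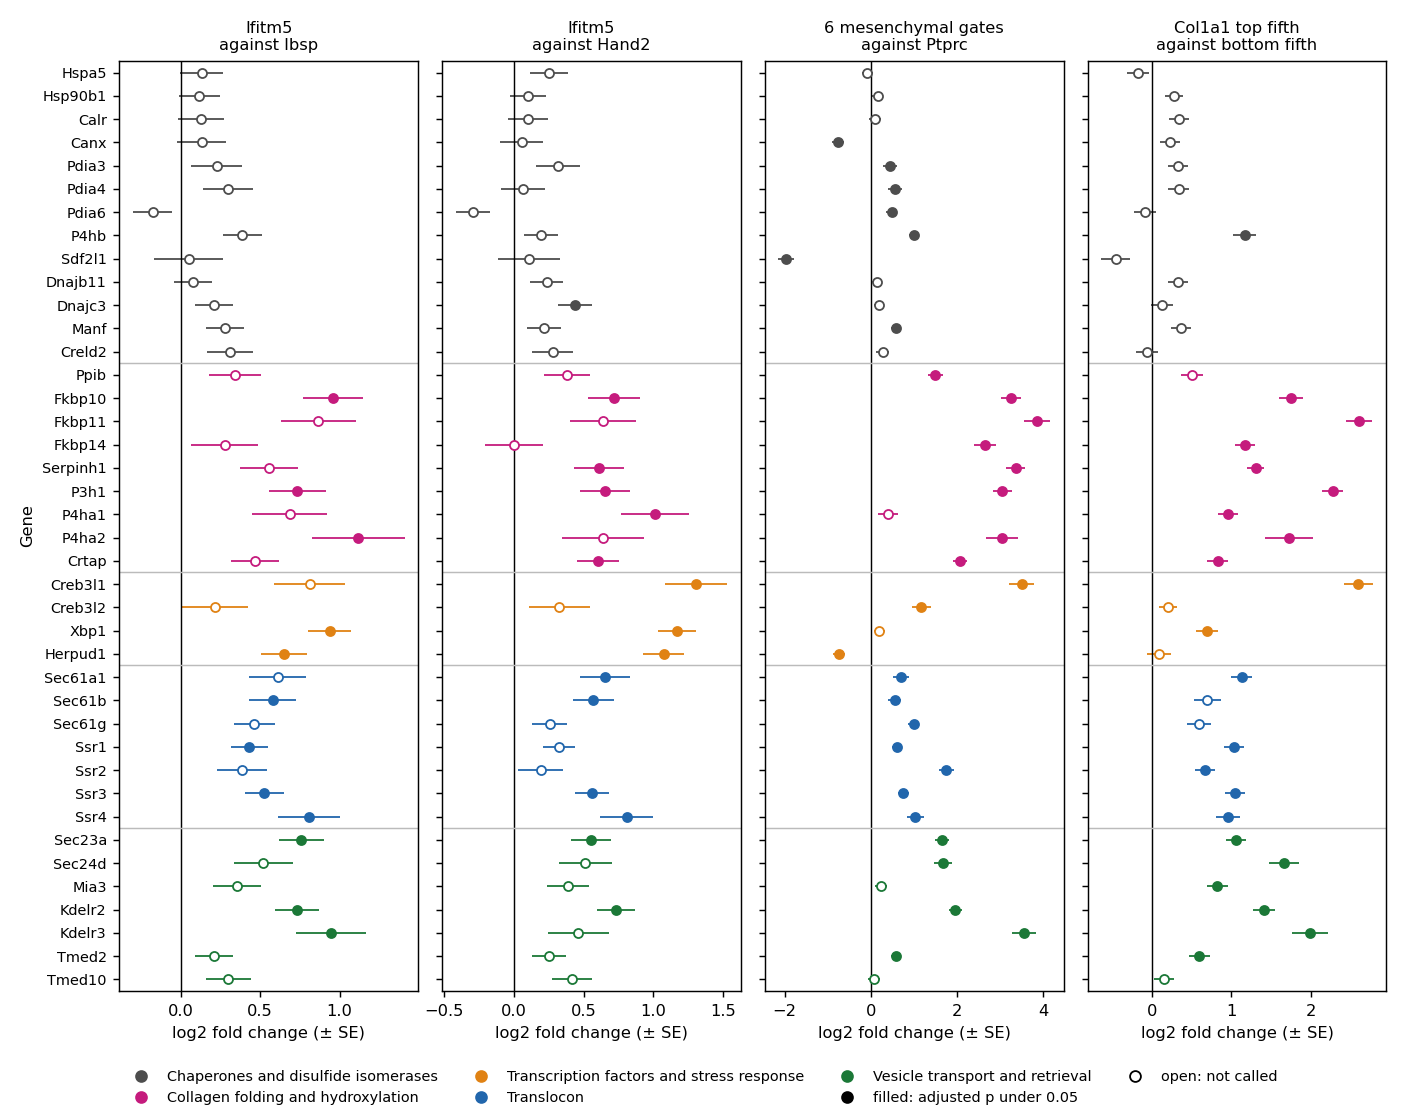
Log2 fold changes of the 40 genes (x axis) with standard errors for the Ifitm5 gate against Ibsp and Hand2, the mesenchymal gates against Ptprc and the Col1a1 quintiles, with genes grouped by role and called genes filled. Xbp1 lies at 1.17 and 0.94 for the Ifitm5 gate against Hand2 and Ibsp, and Hspa5 at 0.25 and 0.13.

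By role, the transcription and stress genes had the largest median log2 fold changes, 1.12 against Hand2 and 0.73 against Ibsp. Xbp1 (ENSMUSG00000020484, GRCm38 chr11:5520659-5525893, plus strand) read 347, 329.9 and 212 CPM in the Ifitm5 gate, 175, 189.5 and 159.6 CPM in the Ibsp gate and 131, 186 and 150.1 CPM in the Hand2 gate. The lowest Ifitm5 value lay above all values of either other gate, with a log2 fold change of 1.17 ± 0.14 (edgeR adjusted p = 0.000105) against Hand2 and a log2 fold change of 0.94 ± 0.14 (edgeR adjusted p = 0.00306) against Ibsp. Creb3l1 (ENSMUSG00000027230, chr2:91982328-92024502, minus strand) read 299, 342 and 263 CPM in the Ifitm5 gate, 234, 178 and 179 CPM in the Ibsp gate and 98.9, 159.7 and 177 CPM in the Hand2 gate. The gates did not overlap, and the difference passed the test against Hand2, with a log2 fold change of 1.31 ± 0.23 (edgeR adjusted p = 0.0015), but not against Ibsp, with a log2 fold change of 0.81 ± 0.22 (edgeR adjusted p = 0.0525). Herpud1, itself a target of the unfolded protein response, read 83.5, 129 and 109 CPM in the Ifitm5 gate and 48.6, 71.2 and 62.1 CPM in the Hand2 gate, without overlap and with a log2 fold change of 1.07 ± 0.15 (edgeR adjusted p = 0.000332). Against the Ibsp gate, at 77.1, 87.4 and 64.3 CPM, the values overlapped across libraries but were higher within each of them (log2 fold change 0.65 ± 0.14, edgeR adjusted p = 0.022). Creb3l2, a close relative of Creb3l1 that controls COPII genes in cartilage, was not called in either comparison and read 126, 89.6 and 106 CPM in the Ifitm5 gate and 88.0, 94.1 and 128 CPM in the Hand2 gate.

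In collagen folding, Fkbp10 read 198, 305 and 219 CPM in the Ifitm5 gate against 151, 143 and 129.9 CPM in the Ibsp gate and 149, 193 and 183 CPM in the Hand2 gate. The Ifitm5 values, with Cpz-positive cells included, were the highest of the Ifitm5, Ibsp and Hand2 gates, without overlap. In the Cpz gate Fkbp10 read 236, 201 and 170 CPM, above the Ifitm5 gate at P15 and below it in the other libraries. The Ifitm5 values gave log2 fold changes of 0.96 ± 0.19 (edgeR adjusted p = 0.0126) against Ibsp and 0.72 ± 0.19 (edgeR adjusted p = 0.0181) against Hand2. P3h1 showed the same order, at 129, 163 and 121 CPM against 105, 94.9 and 84.2 and 93.5, 111 and 108 CPM, and was called in both. P4ha1 read 134, 170.2 and 141 CPM in the Ifitm5 gate and 86.2, 83.0 and 93.4 CPM in the Hand2 gate, with a log2 fold change of 1.01 ± 0.24 (edgeR adjusted p = 0.011), and was not called against Ibsp. P4ha2 differed between libraries. It read 134, 195 and 60.0 CPM in the Ifitm5 gate and 61.0, 76.4 and 60.8 CPM in the Ibsp gate, so that the 2 gates were level at 8 weeks although the pooled difference was called (log2 fold change 1.12 ± 0.29, edgeR adjusted p = 0.0465). It was the exception among the 12 genes called against Ibsp, of which 11 were higher in all 3 libraries. Serpinh1 and Crtap were called against Hand2 only, at 0.61 and 0.60. Ppib, the cyclophilin B of the P3h1 and Crtap complex, read 1127, 1114 and 1044 CPM against 989, 1052 and 923 and 1002, 1024 and 973 CPM and was not called against either gate.

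Among translocon and transport genes, Ssr4, a subunit of the translocon-associated protein complex, read 628, 727 and 608 CPM in the Ifitm5 gate, 469, 446 and 379.7 in the Ibsp gate and 543, 423 and 386 in the Hand2 gate. The Ifitm5 values did not overlap those of the Ibsp and Hand2 gates. The log2 fold changes were 0.81 ± 0.19 (edgeR adjusted p = 0.0299) against Ibsp and 0.81 ± 0.19 (edgeR adjusted p = 0.0106) against Hand2. In the Cpz gate Ssr4 read 780, 750 and 609 CPM, no lower than in the Ifitm5 gate in any library. Sec61b, a subunit of the protein-conducting channel, was called in both (0.58 and 0.57), although its Ifitm5 value at 8 weeks, 479 CPM, lay below the P15 value of the Ibsp gate, 533 CPM. With Cpz-positive cells included, Kdelr3 read 137, 217 and 159 CPM against 116, 100.2 and 90.8 CPM in the Ibsp gate, without overlap. Kdelr3 had a log2 fold change of 0.95 ± 0.22 (edgeR adjusted p = 0.0271). It was not called against Hand2, where it read 146, 153 and 149 CPM. In the Cpz gate Kdelr3 read 255, 209 and 201 CPM, above the Ifitm5 gate at P15 and 8 weeks and below it at P25. Sec23a, of the inner COPII coat, was called in both (0.76 and 0.55). Sec24d, its cargo-binding partner, and Mia3, the receptor TANGO1 that loads procollagen into carriers, were not called in either. Sec24d read 84.2, 108 and 69.4 CPM in the Ifitm5 gate and 73.2, 68.3 and 65.5 CPM in the Ibsp gate, and Mia3 83.9, 129 and 95.3 and 90.3, 89.0 and 92.4 CPM.

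The 13 chaperones gave 1 call, Dnajc3, a BiP co-chaperone, against Hand2 (log2 fold change 0.44 ± 0.12, edgeR adjusted p = 0.0223). Hspa5 (ENSMUSG00000026864, chr2:34771970-34777547, plus strand) read 785, 746 and 598 CPM in the Ifitm5 gate, 765, 859 and 599.9 CPM in the Ibsp gate and 738, 776 and 609 CPM in the Hand2 gate, which overlapped fully. Its log2 fold changes were 0.13 ± 0.13 against Ibsp and 0.25 ± 0.13 against Hand2. Hsp90b1 (0.12 and 0.10), Calr (0.13 and 0.10), P4hb (0.39 and 0.20) and Pdia4, another disulfide isomerase (0.30 and 0.06), were also not called. The same held for Sdf2l1 (0.05 and 0.11), Creld2, a stress-induced disulfide exchange factor (0.31 and 0.28), and Manf, a secreted ER stress protein (0.28 and 0.22). Manf overlaps Rbm15b on the same strand, so its counts are uncertain. Hsp90b1 overlaps Gm15344 on the same strand, a gene listed at P25 but not in all libraries. The counts of Hsp90b1 at P25 are therefore uncertain too.

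**Figure D4:**
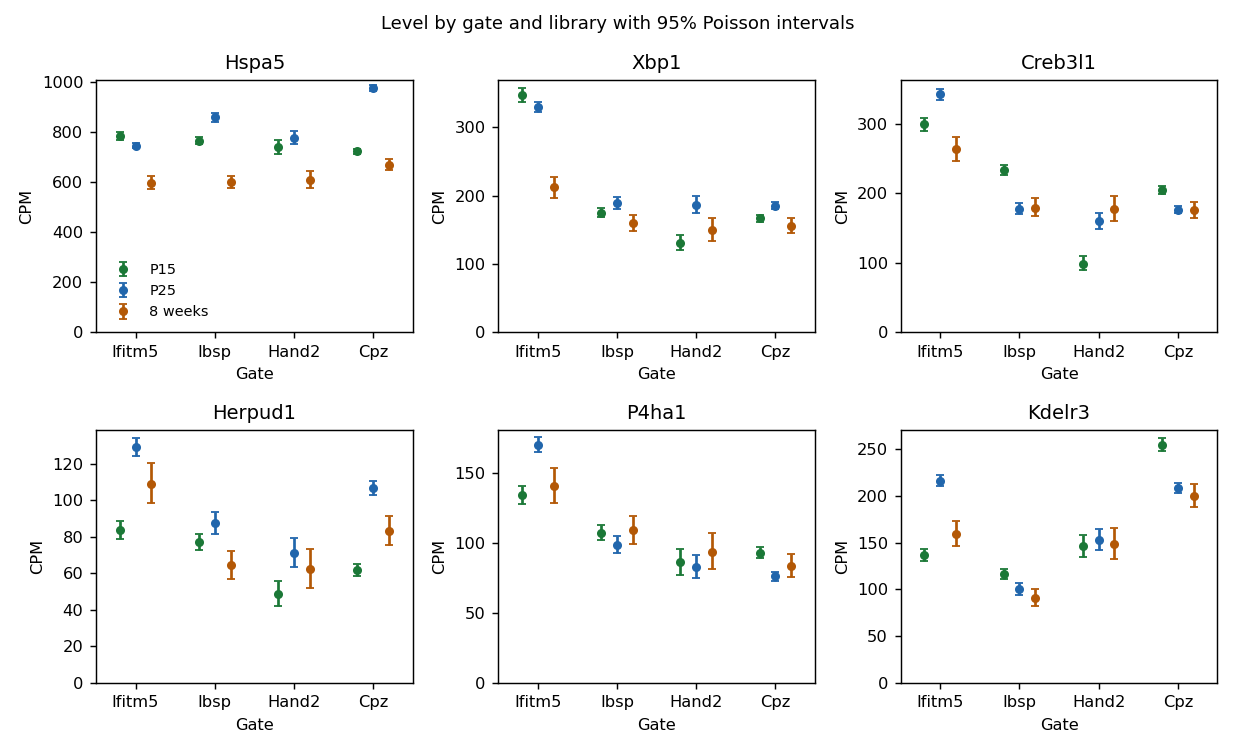
Levels of selected genes (CPM, y axis) in the gates at P15, P25 and 8 weeks, 1 point per library with its 95% Poisson interval. Xbp1 in the Ifitm5 gate (347, 329.9 and 212 CPM) lies above the Ibsp and Hand2 gates in each library, and Hspa5 does not separate the gates.

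How many genes were called in these comparisons depended on several choices. With no replicate block 3 were called against Ibsp and 9 against Hand2, with lower gate minimums 4 and 10, and with cells counted in each gate they pass 3 and 21. Without P25, 0 genes were called against Ibsp and 4 against Hand2, and without the 8-week library 1 and 5, whereas without P15 there were 23 and 22. The Ifitm5 gate held 82, 483 and 89 cells that reached the Cpz minimum, and without them 1 gene was called against Ibsp and 5 against Hand2. Xbp1 was called against Hand2 in each of these cases. Against Ibsp it was called in each except without P25 (log2 fold change 0.88, edgeR adjusted p = 0.169). Its level was 337, 339 and 240.2 CPM in Ifitm5 cells with Cpz and 349.9, 304 and 189.5 CPM in those without. Kdelr3 instead was higher in the cells with Cpz in each library, at 257, 247 and 214 CPM with Cpz and 108, 135 and 116 CPM without. So was Fkbp10, at 310.4, 341 and 276 and 171, 207 and 173 CPM. In cells without Cpz, Kdelr3 lay below the Ibsp gate at P15 (116 CPM) and Fkbp10 below the Hand2 gate at 8 weeks (183 CPM). Creb3l1, at 393, 362 and 292 and 277, 290.3 and 239.6 CPM, was above the Hand2 gate in both. Cells with Cpz also had more UMIs, a median of 27968.5, 30302 and 18347 against 17022, 14576 and 10874, and the Ifitm5 gate as a whole a median of 17704, 23180.5 and 12429 against 14531, 12285.5 and 8421 in the Ibsp gate and 18082, 15213 and 11145 in the Hand2 gate. The part of depth and of cell mixtures in these values was not tested.

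The changes were also relative to a scaling. Col1a1 alone gave 21166, 63853 and 39789 CPM in the Ifitm5 gate, and under scaling by total counts without composition factors the median of all genes moved to -0.20 against Ibsp and -0.24 against Hand2. The 40 genes then had medians of 0.22 and 0.15, 5 were called higher in each comparison, and Pdia6 was called lower against Hand2. Hsp90b1, Calr, P4hb, Pdia4, Manf and Sdf2l1, none of them called, had values below 0 against Hand2 under this scaling. Xbp1, Ssr4 and Kdelr2, another retrieval receptor, were among the 5 in both.

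As gated here, the Ibsp and Hand2 gates did not differ detectably in the machinery. No gene of the 40 was called in either direction, where 3.53% and 2.91% of genes tested were, so both counts were near the shares of all genes. edgeR counts at an unadjusted p under 0.05 were 2 higher and 1 lower, and DESeq2 called 0 and 0. The median log2 fold change was -0.0038, and 20 genes had values above 0. Cells that passed both minimums and no other, 40, 739 and 546 of them, were in neither gate. With cells counted in each gate they pass, 33 of the 40 genes had values above 0, with a median of 0.12, and 1 was called higher. Creb3l1 read 234, 178 and 179 CPM in the Ibsp gate and 98.9, 159.7 and 177 CPM in the Hand2 gate, a log2 fold change of 0.50 ± 0.22 (edgeR adjusted p = 0.241). P4ha1 read 107, 98.7 and 109 and 86.2, 83.0 and 93.4 CPM without overlap, but its log2 fold change of 0.33 ± 0.24 (edgeR adjusted p = 0.519) did not pass.

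The Pappa2 gate, with 1 summed library at P15, gave 0 called genes in either direction against Hand2, where 0.322% and 0.00716% of genes tested were called. At an unadjusted p under 0.05 edgeR gave 4 higher and 0 lower, and DESeq2 called 1 higher, Dnajc3. Its median log2 fold change was 0.20, and the single library is assumed to vary like the other gates.

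In the Rgs5 gate, 10 of the 40 genes were lower than in the Hand2 gate and none higher, where 3.36% and 4.63% of genes tested were. The lower genes were spread over all roles, 3 in the translocon and 2 or fewer in each other role. Creb3l1 read 83.4, 83.0 and 47.3 CPM against 98.9, 159.7 and 177 CPM, without overlap, with a log2 fold change of -1.11 ± 0.25 (edgeR adjusted p = 0.0185). Fkbp11 (-0.91), Fkbp14, a prolyl isomerase that acts on collagens (-0.88), Ssr1 (-0.72) and Manf (-0.70) were the other 4 with the largest differences among the genes called. Hspa5 read 781, 1209 and 921 CPM in the Rgs5 gate, above each library's Hand2 value, and was not called (log2 fold change 0.34 ± 0.14, edgeR adjusted p = 0.153). For the 0 higher genes, the edgeR count at an unadjusted p under 0.05 was 4, and DESeq2 called 0. The gate rested on 25 and 37 cells at P25 and 8 weeks, 5 mural markers summed to 8908, 1705 and 1212 CPM in it, and 7 dissociation stress genes to 9398, 12671 and 19673 CPM against 5275, 6407 and 6471 in the Hand2 gate. Their part was not tested, and without P25 or without 8 weeks no gene was called (0 lower, with 17 and 13 at an unadjusted p under 0.05 and 16 called without P15).

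In the Cpz gate, 4 of the 40 were higher than in the Hand2 gate and none lower, where 2.26% and 1.17% of genes tested were. At an unadjusted p under 0.05 the lower count was 0, and DESeq2 called 0 lower. Crtap and Ppib, subunits of the same proline 3-hydroxylation complex, were both among them. Crtap read 251, 275 and 259.6 CPM in the Cpz gate and 151, 144 and 164 CPM in the Hand2 gate, and Ppib 1589, 1706 and 1344 against 1002, 1024 and 973 CPM. Neither overlapped, with a log2 fold change of 0.92 ± 0.15 (edgeR adjusted p = 0.00601) and a log2 fold change of 0.77 ± 0.16 (edgeR adjusted p = 0.024). The third subunit, P3h1, read 152, 133 and 121 against 93.5, 111 and 108 CPM, also without overlap, and did not pass (log2 fold change 0.52 ± 0.18, edgeR adjusted p = 0.152). Ssr4 (0.81) and Herpud1 (0.60) were the other calls. Xbp1, at 167, 186 and 156 CPM, overlapped the Hand2 gate and was not called (log2 fold change 0.27 ± 0.14, edgeR adjusted p = 0.346). Without P25 or without 8 weeks no gene was called (15 and 9 at an unadjusted p under 0.05), and without P15 there were 9.

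The genes were then read against type I collagen itself. Cells without UMIs of 6 genes of leukocytes, epithelium and endothelium (1345, 1838 and 3824 cells) were ranked within each library by the share of Col1a1 into quintiles, 5 groups of equal size, and the top quintile was set against the bottom quintile. The 40 genes took 0.933% of UMIs in the lowest quintile and 1.53% in the highest at P15, 1.10% and 1.68% at P25, and 1.01% and 1.42% at 8 weeks. Of the 40, 22 were higher in the top quintile and none lower, where 5.65% and 4.65% of the 11900 genes tested were. The edgeR count lower at an unadjusted p under 0.05 was 0, and DESeq2 called 0 lower. The median log2 fold change was 0.70 for the 40 and -0.02 for all genes. The calls took in 8 of 9 collagen folding genes, 6 of 7 transport genes, 5 of 7 translocon subunits, 2 of 4 transcription and stress genes and 1 of 13 chaperones. At an unadjusted p under 0.05 in edgeR, 6 of the 13 chaperones were higher and 0 lower.

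Creb3l1 went from 40.3 to 318 CPM at P15, from 55.1 to 303 CPM at P25 and from 59.0 to 250.3 CPM at 8 weeks between the lowest and the highest quintile, with a log2 fold change of 2.60 ± 0.18 (edgeR adjusted p = 0.00313). P3h1 went from 35.6 to 173 CPM at P15, from 35.6 to 169.9 CPM at P25 and from 35.0 to 139.6 CPM at 8 weeks, with a log2 fold change of 2.27 ± 0.13 (edgeR adjusted p = 0.0022). The highest quintile exceeded the lowest in each library for both genes. Serpinh1 (ENSMUSG00000070436, chr7:99345376-99353239, minus strand) went from 1007 to 2436 CPM at P15, from 1445 to 3254 CPM at P25 and from 1155 to 2599 CPM at 8 weeks, with a log2 fold change of 1.31 ± 0.11 (edgeR adjusted p = 0.00421). The 5 largest log2 fold changes were those of Fkbp11 (2.60), Creb3l1, P3h1, Kdelr3 (1.99) and Fkbp10 (1.75). P4ha2 (1.73), P4ha1 (0.96) and Crtap (0.83) were called too. Ppib was the collagen folding gene that was not (log2 fold change 0.50 ± 0.14, edgeR adjusted p = 0.0771).

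Of the transport genes, Sec24d went from 24.2 to 95.7 CPM at P15, from 33.2 to 109.7 CPM at P25 and from 43.9 to 90.3 CPM at 8 weeks, with a log2 fold change of 1.66 ± 0.19 (edgeR adjusted p = 0.00872). Mia3 was called at 0.82, and Xbp1 at 0.69. Neither Sec24d nor Mia3 was called for the Ifitm5 gate against Ibsp or Hand2. Among the chaperones P4hb was the one called, from 187 to 439 CPM at P15, from 199 to 449 CPM at P25 and from 254 to 442 CPM at 8 weeks and with a log2 fold change of 1.17 ± 0.14 (edgeR adjusted p = 0.00945). Hspa5 went from 632 to 671 CPM at P15, from 1041 to 807 CPM at P25 and from 904 to 617 CPM at 8 weeks, up in 1 library and down in the others (log2 fold change -0.18 ± 0.14, edgeR adjusted p = 0.462). Hsp90b1 (0.28), Calr (0.35) and Pdia4 (0.33) were not called.

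**Figure D5:**
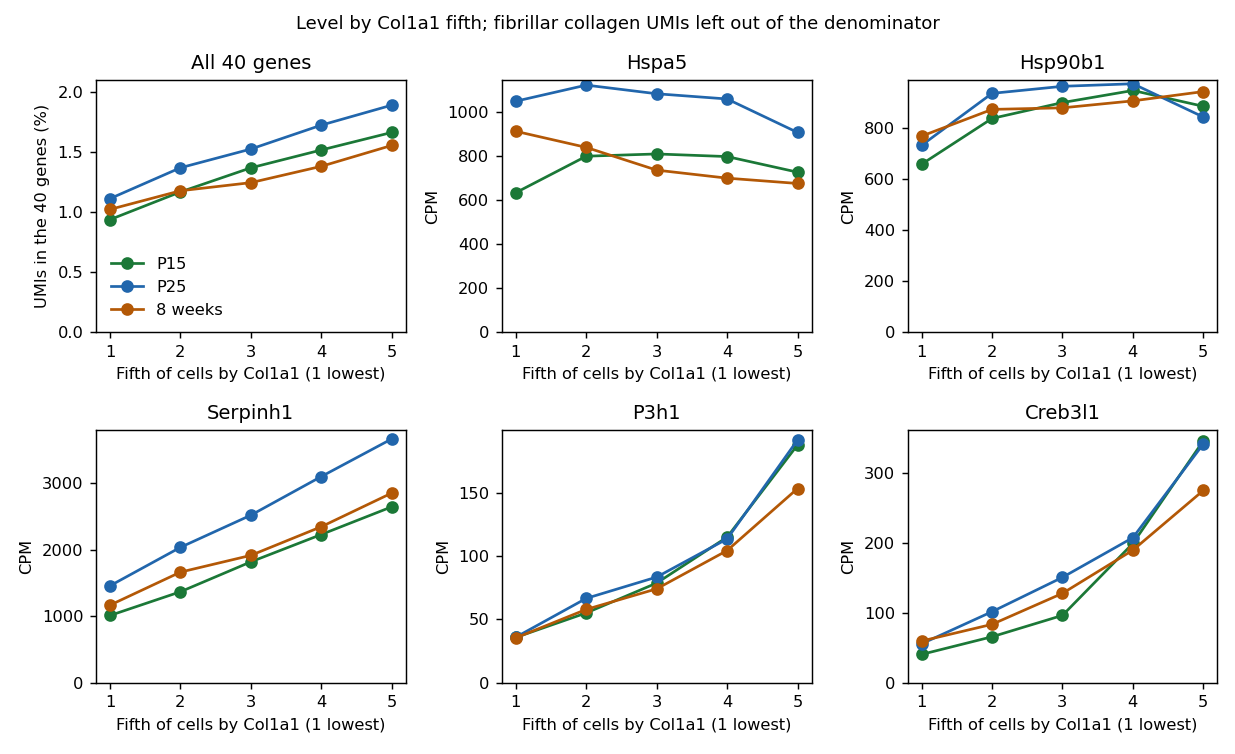
Level of selected genes and share of the 40 genes (y axes) over the quintiles of cells ranked by Col1a1 within each library (x axis, lowest to highest), 1 line per library. Fibrillar collagen UMIs are left out of the denominators, on which Creb3l1 goes from 40.5 to 346 CPM and Hspa5 from 635 to 728 CPM at P15.

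The quintiles differed in more than Col1a1. Cells of the top quintile had a median of 14148, 17675.5 and 8395 UMIs against 7414, 8384 and 7038.5 in the bottom quintile. Cpz-gate cells made up 25.7%, 40.5% and 24.2% of the top quintile and Ifitm5-gate cells 5.58%, 21.5% and 13.6%, whereas 91.1%, 88.8% and 91.6% of the bottom quintile were in none of the gates or in several. The part of depth and make-up was not tested. Fibrillar collagen is part of the total, and with its UMIs taken out the 40 genes went from 0.938% to 1.66% at P15, from 1.11% to 1.89% at P25 and from 1.02% to 1.55% at 8 weeks. Without the P25 library no gene was called, with 22 higher and 0 lower at an unadjusted p under 0.05, and without 8 weeks 14 were called. The filter for other cell types kept 1345 of 12926, 1838 of 8971 and 3824 of 5192 cells. A looser filter, under 5 UMIs of the 6 genes per 10000, kept 9088, 7390 and 4860 cells. Between quintiles of those cells 24 of the 40 genes were called higher and 0 lower. The share of all genes called under this filter is not given here. Ptprc-gate cells made up 9.19%, 4.53% and 0.82% of the bottom quintile under it and 0.06%, 0% and 0% of the top quintile. Their part in the count was not tested.

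Within single gates the share of the 40 genes varied with Col1a1 from cell to cell, least in the Cpz gate. Over the 639, 820 and 267 cells of the Ifitm5 gate, Spearman's rho between the share of the 40 genes and that of Col1a1, both out of UMIs without fibrillar collagen, was 0.40, 0.40 and 0.55. It was 0.27, 0.42 and 0.35 in the Ibsp gate, 0.34, 0.57 and 0.55 in the Hand2 gate, and 0.15, 0.16 and 0.09 in the Cpz gate. In the Ifitm5 gate Serpinh1 had rho of 0.55, 0.43 and 0.56, Kdelr3 0.52, 0.51 and 0.48, and Creb3l1 0.45, 0.41 and 0.40. Hspa5 had -0.10, -0.02 and 0.01. Of members at 50 CPM or more, the median rho in the Ifitm5 gate was 0.27, 0.30 and 0.22, against 0.01, 0.00 and -0.04 over all genes at that level. In the Cpz gate the median was 0.14, 0.15 and 0.03, against -0.02, -0.03 and -0.08. Ifitm5-gate cells with Cpz held a median of 983, 2060 and 1035 Col1a1 UMIs, and those without 207, 270 and 142.5. The part of this mixture in the rho values was not tested. Cells of a gate share a library and differ in depth, which correlated with Col1a1 at 0.26, 0.46 and 0.39 and with the share of the 40 genes at 0.37, 0.25 and 0.29 in the Ifitm5 gate, so these values are descriptions.

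Promoter sequence was examined for known elements of the unfolded protein response, by role. RefSeq promoters of GRCm38.p6, from 250 bases before to 50 after each gene's start, were found for 33 of the 40 genes. They were searched on both strands for 3 published elements of the unfolded protein response. The ER stress response element ERSE was taken as CCAAT followed by CCACG after 9 bases of any kind, ERSE-II as ATTGG followed by CCACG after 1 base of any kind, and the core of the unfolded protein response element UPRE as TGACGTGG. No site was counted as more than 1 of these. ERSE was in 0.137% of 27025 gene symbols with a promoter (0.119% of 32851 promoters) and in 7 of the 33 genes, all 7 of them chaperones. The sites are shown because this element was found in chaperones only among the 33 genes, with the fixed letters in capitals and the spacer in lower case, each read 5′ to 3′ on the strand that carries the match. They began between 65 and 212 bases before the RefSeq start, which for Hspa5 lies downstream of the Ensembl gene start given above, so that its site falls inside the Ensembl gene.
Hspa5, chr2:34772025-34772043, plus strand: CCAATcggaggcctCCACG
Hsp90b1, chr10:86705638-86705656, minus strand: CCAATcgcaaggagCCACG
Hsp90b1, chr10:86705533-86705551, plus strand: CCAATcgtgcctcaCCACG
Calr, chr8:84847075-84847093, plus strand: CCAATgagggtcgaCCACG
Canx, chr11:50325800-50325818, minus strand: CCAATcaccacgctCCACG
Pdia6, chr12:17266491-17266509, plus strand: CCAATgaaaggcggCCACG
Dnajc3, chr14:118937827-118937845, plus strand: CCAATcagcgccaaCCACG
Creld2, chr15:88819520-88819538, minus strand: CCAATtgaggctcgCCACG

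The UPRE core was in 0.714% of gene symbols with a promoter (0.676% of promoters) and in 3 of the 33 genes, all of them genes of vesicle transport. ERSE-II was in 0.0444% of gene symbols (0.0365% of promoters) and in 2 of the 33, Dnajb11 and Herpud1. These sites are shown with 8 flanking bases on each side in lower case and the motif letters in capitals, for comparison with the chaperone sites.
Sec23a, chr12:59012004-59012011, minus strand: ctccccttTGACGTGGcagaggcg
Sec24d, chr3:123267470-123267477, plus strand: cgggcgccTGACGTGGcactagca
Kdelr3, chr15:79516378-79516385, minus strand: ccgcgcggTGACGTGGcggggcgg
Dnajb11, chr16:22857852-22857862, plus strand: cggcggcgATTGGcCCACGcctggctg
Herpud1, chr8:94386377-94386387, plus strand: gggcgctgATTGGgCCACGttggacac

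Between Col1a1 quintiles, where 5.65% of all genes tested were higher and 4.65% lower, 0 of the 7 genes with ERSE were called, a share near that of all genes, with a median log2 fold change of 0.13 and a range from -0.18 to 0.35. All 3 genes with the UPRE core were called, with a median of 1.66, and so were 13 of the 21 genes with none of the 3 motifs. Against the Ptprc gate, where 26.3% of genes tested were higher and 32.1% lower, 1 gene with ERSE was higher and 1 lower, and all 3 with the UPRE core were higher. The matches are letters in a window and describe no binding.

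Between time points each gate has 1 library, so no difference could be tested and intervals cover counting error only. At 8 weeks against P15, a 1.5-fold lower level was reached in the Ifitm5 gate by 7 of the 40 genes and a 1.5-fold higher level by none, where 10.3% and 5.35% of 5556 genes at a mean of 20 CPM or more did so. In the Ibsp gate 3 were lower and 0 higher (4.60% and 6.57% of 5963 genes), in the Cpz gate 6 and 0 (8.47% and 8.64% of 5704), and in the Hand2 gate 1 and 2 (7.88% and 14.8% of 6000). The median log2 ratio was -0.07 for the 40 genes and -0.15 for all these genes in the Ifitm5 gate. It was -0.14 and 0.02 in the Ibsp gate, -0.18 and -0.08 in the Cpz gate, and 0.11 and 0.07 in the Hand2 gate. Manf was lower in 3 of the 4 gates. In the Ifitm5 gate it read 442 CPM (95% Poisson interval 431 to 454) at P15, 426 at P25 and 248 (232 to 264) at 8 weeks, and in the Cpz gate 338, 399 and 193 CPM. Pdia6, a disulfide isomerase that attenuates stress signalling, was likewise lower in 3 of the 4, reading 374, 275 and 234 CPM in the Ifitm5 gate. Xbp1 in the Ifitm5 gate read 347 CPM (337 to 358) at P15 and 212 CPM (197 to 228) at 8 weeks, and lay above the Ibsp and Hand2 gates at each age.

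P4ha2 differed in opposite directions between the ages in 2 gates. It read 134 CPM (128 to 141) at P15 and 60.0 CPM (52.3 to 68.6) at 8 weeks in the Ifitm5 gate, but 70.1 (62.0 to 79.0) and 106 CPM (92.5 to 120.1) in the Hand2 gate. P4ha1 was less than 1.5-fold apart between the same ages in both, at 134, 170.2 and 141 and 86.2, 83.0 and 93.4 CPM. Creb3l1 was lower at P15 than at 8 weeks in the Hand2 gate, 98.9 CPM (89.2 to 109) against 177 CPM (160.1 to 196). Col1a1 in that gate read 8267, 14895 and 17353 CPM over the same libraries. Age, library and, for P25, the gene reference cannot be told apart. The make-up of the gates also differed between libraries. Of the 639, 820 and 267 cells of the Ifitm5 gate, 82, 483 and 89 reached the Cpz minimum. The Hand2 gate left out 40, 739 and 546 cells that also passed the Ibsp minimum and no other. Median depth in the Ifitm5 gate was 17704, 23180.5 and 12429 UMIs. The part of make-up and depth in the differences between ages was not tested.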

How the data were processed

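Cells sorted for mCherry from mouse molars at P15, P25 and 8 weeks were sequenced as 1 10x Genomics 3′ library (v3.1) each. The UMI counts per gene and cell were deposited by the authors as filtered matrices. The submitters' notes name Cell Ranger 6.1.2 and mm10, and the matrix headers name Cell Ranger 6.1.2 for P15 and 8 weeks and 6.0.1 for P25. The counts were not normalized, and no doublet removal is stated. The total depth was 188157997, 169712592 and 46234378 UMIs.

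Genes were joined by Ensembl ID. The 40 genes, the gates, the pathway lists and the tests were chosen with earlier results of these data known. The genes given with values were a list of 24 members, plus in each comparison the 5 called members with the largest log2 fold change in each direction. Those outside it, such as Canx, Dnajc3, Sec23a, Kdelr2 and Pdia6, were named after their values were seen. A cell entered a gate with at least 3 UMIs of Ifitm5, 20 of Ibsp, 2 of Hand2, 5 of Rgs5, 3 of Pappa2, 2 of Cpz or 2 of Ptprc and the minimum of no other gate, except that Ifitm5 cells could also pass Ibsp or Cpz. This exception was set after the overlaps of the gates, but not the 40 genes, were seen. It left out 2626 cells that passed several gates.

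Counts were summed per gate and library, with at least 20 cells a sum, and CPM are per 1000000 UMIs of the joined genes. Sums were compared with edgeR 4.0.16 (quasi-likelihood test, TMM factors, filterByExpr, library as a block, Benjamini-Hochberg adjustment over all genes tested, call at 0.05). The same library numbers the sums of each gate, and deviations of gates within a library correlated at 0.166 or more, which is why library was a block. Intervals are exact Poisson at 95% and cover counting error only. The Ptprc gate was summed at P15 and P25 only, and the Pappa2 gate at P15 only. The gate comparisons otherwise have 3 libraries, and the block takes out the level of each library. Their p-values therefore measure how unevenly gate differences repeat over libraries of different age, with dispersion estimated over all gate sums. Between time points there is no replicate. The genes Ifitm5, Ibsp and the other gates select cells by UMIs and thereby by depth. Alternatives were DESeq2 1.42.0, no block, no filter on low counts, other gate minimums, cells counted in each gate passed, stricter cell quality (500 genes, at most 20% mitochondrial UMIs), removal of the 6% of cells with the highest Scrublet scores (scanpy 1.11.5), omission of each library and tertiles in place of quintiles. Added after seeing the data were total-count scaling, an Ifitm5 gate without Cpz-positive cells and a looser filter for other cell types. The test was tried on simulated data with known changes.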

Additional observations from a re-analysis of the deposited data

How the results depend on the processing

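Across the alternatives no called gene changed direction. Library was a block in the reported fits. With no replicate block the counts of higher genes fell to 3 (Ifitm5 against Ibsp), 9 (Ifitm5 against Hand2) and 1 (Cpz against Hand2), and of lower genes to 3 (Rgs5 against Hand2). With the paired libraries left out in turn, higher genes ranged from 0 to 23 for Ifitm5 against Ibsp, 4 to 22 for Ifitm5 against Hand2, 0 to 3 for Rgs5, 0 to 9 for Cpz and 0 to 23 between Col1a1 quintiles. Lower genes ranged from 0 to 16 for Rgs5 and 0 to 1 for Ibsp against Hand2. DESeq2 called 20 higher for Ifitm5 against Ibsp, 1 lower for Ifitm5 against Hand2 and 1 higher for Pappa2. Lower gate minimums gave 4 higher for Ifitm5 against Ibsp, 1 for Ibsp against Hand2 and 0 lower for Rgs5, and higher minimums gave 19 higher for Ifitm5 against Ibsp. Counting cells in each gate they pass gave 3 higher for Ifitm5 against Ibsp, 1 for Ibsp against Hand2, 1 for Rgs5 and 16 for Cpz, and 2 lower for Rgs5. Without Cpz-positive cells in the Ifitm5 gate, higher genes were 1 and 5 for Ifitm5 against Ibsp and Hand2 and 7 for Cpz, and lower genes 17 for Rgs5. Total-count scaling gave 5 higher for Ifitm5 against Ibsp and 5 higher and 1 lower against Hand2. The cause was not tested. Fits that leave out a library also have fewer degrees of freedom, and the part of this in the counts was not tested. Counts against Ptprc kept within 1.5-fold under the alternatives that keep its sums of P15 and P25. Leaving out P15 or P25 leaves 1 Ptprc sum. With 1 library per age, and 25 and 37 cells in the Rgs5 gate at P25 and 8 weeks, differences between ages and in the Rgs5 gate are limited by the number of libraries and cells.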

Other observations

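Genes of the same pathways outside the 40 were counted in lists chosen with earlier results of these data known. Of all genes tested, 9.44% were higher and 8.85% lower for the Ifitm5 gate against Hand2, and 3.12% and 2.23% against Ibsp. In the Ifitm5 gate against Hand2, 16 of 28 genes of the COPII coat and its cargo receptors were higher and 0 lower, among them Sec16b, which organizes ER exit sites, with a log2 fold change of 2.59, Sec13 (0.64) and Sec24a (0.63). Against Ibsp, 6 of 28 were higher and 0 lower, led by Sec24a (0.68), Tfg, which links exit sites (0.67), and Sec13 (0.60). Of 12 subunits of the oligosaccharyltransferase, which adds N-glycans, 7 were higher against Hand2 and 5 against Ibsp, with Ost4 at 0.58 in both. Of 19 genes of signal recognition, translocation and signal peptidase, 9 were higher and 1 lower against Hand2, including the signal peptidase subunit Sec11c (0.94), and 1 was higher against Ibsp, the translocating chain protein Tram1 (0.55). The other chaperones gave 0 of 18 against Hand2 and 1 of 18 against Ibsp, the collagen chaperone Rcn3 (0.91).

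Of 26 genes of ER stress sensing and degradation tested, 9 were higher and 1 lower against Hand2 and 2 were higher against Ibsp. Creb3l3, a membrane-bound factor of the family of Creb3l1, was higher in both, with log2 fold changes of 2.32 ± 0.42 (SE, edgeR adjusted p = 0.00191) and 2.25 ± 0.38 (edgeR adjusted p = 0.006), and rose with Col1a1. Vimp, of the degradation complex, was also higher in both (0.87 and 0.60), and Sesn2 against Hand2 (1.53).

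Of the 12 other genes of collagen modification, 4 were higher and 1 lower against Hand2 and 2 higher and 1 lower against Ibsp. The lower gene was in both cases P4ha3, the remaining catalytic subunit of prolyl 4-hydroxylase, with log2 fold changes of -2.88 and -1.94. Its paralogs P4ha1 and P4ha2 had 1.01 against Hand2 and 1.12 against Ibsp where they were called. Between Col1a1 quintiles P4ha3 was higher (2.04), with 9 of the 10 genes tested from that list. The lysyl hydroxylases Plod1 (2.04 against Hand2) and Plod2 (1.19 against Ibsp) were higher. Of 11 fibrillar collagen genes, 4 were higher and 2 lower against Hand2 and 5 higher and 2 lower against Ibsp. Col11a2 had log2 fold changes of 7.24 and 3.67, Col2a1 5.25 against Hand2, Col5a3 -2.58 against Ibsp, and Col3a1 -1.90 and -1.68.

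Against the Ptprc gate, where 26.3% of all genes tested were higher and 32.1% lower, the counts of higher and lower genes were 10 and 5 of 18 chaperones, 4 and 10 of 26 ER stress genes, 12 and 2 of 19 translocation genes, 8 and 1 of 12 oligosaccharyltransferase genes, 17 and 6 of 28 COPII genes, 6 and 3 of 12 collagen modification genes and 8 and 0 of 11 fibrillar collagens. Between Col1a1 quintiles, where 5.65% and 4.65% of all genes tested were called, they were 6 and 0 of 18, 6 and 1 of 25, 4 and 0 of 19, 5 and 0 of 12, 13 and 0 of 28, 9 and 0 of 10, and 8 and 0 of 11 in the same order. The quintiles were ranked by Col1a1, itself a fibrillar collagen, so the fibrillar collagen count is not independent of the ranking.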
